A study of Mus musculus with 16 samples.

Results

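The Reg (regenerating) family of secreted C-type lectins was followed across 2 regions of the mouse small intestine. Its 7 mouse members, Reg1, Reg2, Reg3a, Reg3b, Reg3d, Reg3g and Reg4, were taken by gene symbol from a table of 55359 Ensembl genes. All 7 were found, 6 of them in 1 cluster on chromosome 6 and Reg4 on chromosome 3. Adult male C57BL/6N mice on a high fat diet gave duodenum and ileum, collected 5 weeks after tamoxifen. Mutant mice were Neurog3f/f; Villin-CreERT2, with floxed Neurog3 alleles and a tamoxifen-dependent recombinase driven in intestinal epithelium by the Villin promoter. Control mice were Neurog3f/f without the recombinase, so the presence of the recombinase and the loss of Neurog3 cannot be told apart. The 4 controls are C133, C134, C151 and C154, the 4 mutants M136, M167, M168 and M177, and every mouse gave 1 library of each tissue, 16 in all. The number is the one in the library title, read as that of the mouse. For genotype within a tissue, p-values measure the spread between these mice. The main tissue and genotype by tissue tests take the 2 libraries of a mouse as independent. A fit with the mouse as a replicate block is their alternative.

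Reg proteins are small secreted lectins made by gut epithelium and by pancreatic acinar cells. Reg3b and Reg3g are antimicrobial: they bind bacterial surfaces and help to keep microbes away from the epithelium, and their genes are switched on through IL-22 and the transcription factor STAT3. Reg1, Reg2 and Reg3d are known as products of the exocrine pancreas, Reg3b is also made by acinar cells under stress, and Reg4 is found in secretory cells of the gut, the hormone-producing enteroendocrine cells among them. Neurog3 starts the formation of those enteroendocrine cells.

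Depth was 40.9 to 67.2 M counts per library. Levels are counts per M (CPM) on scaled library sizes. Rose and fell are used for genes with an adjusted p under 0.05 (quasi-likelihood test of edgeR, Benjamini-Hochberg over all genes tested), and every fold change and p below comes from that test unless another is named. Neurog3 stood at 2.42 to 2.81 CPM in control duodenum and 0.558 to 1.03 CPM in control ileum, and had at most 1 count in any mutant library. Duodenum lies against the pancreas, and the libraries carried pancreatic RNA unequally. Ctrb1 encodes a chymotrypsinogen of acinar cells. Its duodenal level was 4237 and 2711 CPM in controls C133 and C151 against 0.273 and 0.0197 CPM in controls C134 and C154. In mutant duodenum it stood at 1382, 34867, 7645 and 34726 CPM in M136, M167, M168 and M177. In the ileum Ctrb1 reached 144 and 111 CPM in C133 and C151, 0.0958 and 0.0414 CPM in C134 and C154, and 19.5 to 410 CPM in mutants. Of 20 exocrine pancreas genes, all tested, none rose or fell with genotype in either tissue, with median log2 fold changes of 3.07 and 1.70. Of all tested genes 8.55% and 33.6% were called in duodenum and ileum. Ctrb1 itself had a duodenal log2 fold change of 3.53 with an SE of 2.81. The lack of calls therefore does not show equal pancreatic RNA in the 2 genotypes. Without Zg16, which goblet cells also express, the summed level of the other 19 was 102 to 37425 CPM in control duodenum, 10736 to 234645 CPM in mutant duodenum, 116 to 1575 CPM in control ileum and 259 to 3455 CPM in mutant ileum. Of these 19, 3 to 8 had no count in the libraries of C134 and C154. Clps had at least 64.7 CPM in each control duodenum library and 98.5 to 139 CPM in control ileum, C134 and C154 included. The lowest of these sums are therefore largely Clps. Enterocyte genes, the check of the tissue label, summed to 36825 to 75774 CPM in duodenum and 11297 to 34818 CPM in ileum. In RNA from whole tissue, fewer cells of a type and less RNA per cell cannot be told apart.

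Each region had its own leading Reg gene. Per kilobase of transcript, Reg1 led in control duodenum at a mean of 2493 CPM per kb, followed by Reg4 at 135, Reg3b at 99.6, Reg3a at 80.7 and Reg3g at 69.4 CPM per kb, with Reg3d at 3.77 and Reg2 at 1.77 CPM per kb. In control ileum Reg3b led at 2660 CPM per kb and Reg3g followed at 1618, while Reg4, Reg3a and Reg1 stood at 99.7, 58.1 and 41.6 CPM per kb and Reg3d and Reg2 at 0.347 and 0.118. Mutant duodenum had 3 genes at a high level, Reg1 at 3764, Reg3b at 2508 and Reg2 at 2431 CPM per kb. Reg3g followed at 585 CPM per kb, Reg3d at 115, Reg3a at 97.8 and Reg4 at 30.5. Mutant ileum kept Reg3b and Reg3g in front at 3183 and 2696 CPM per kb, before Reg4 at 201, Reg1 at 58.6, Reg2 at 40.0, Reg3a at 12.4 and Reg3d at 1.48. Libraries of neighbours in these orders overlapped, except between Reg1 and Reg4 and between Reg3g and Reg3d in control duodenum, Reg3a and Reg4 in mutant duodenum, Reg3g and Reg4 in both ileum groups, Reg1 and Reg3d in control ileum, and Reg3a and Reg3d in mutant ileum.

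**Figure D1:**
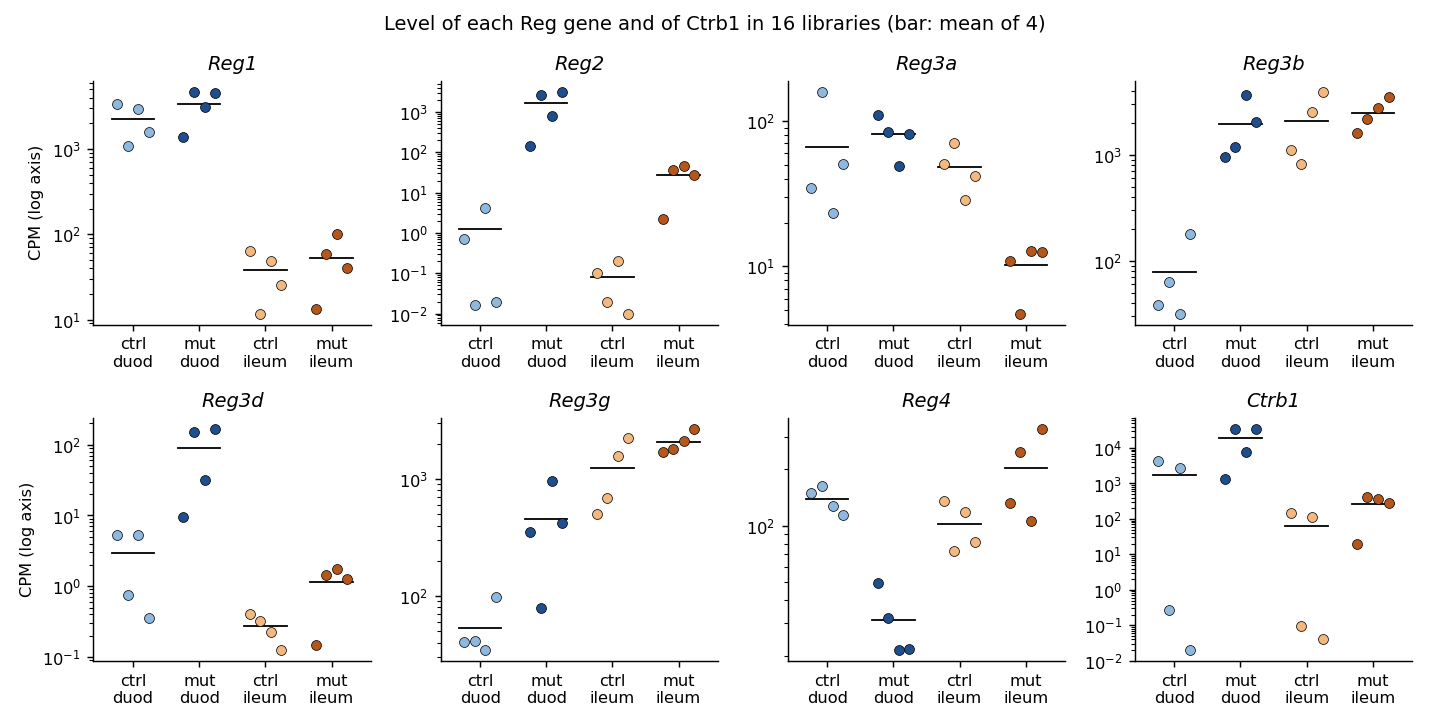
CPM of each Reg gene and of Ctrb1 (log axes with their own ranges) in the libraries of control (ctrl) and mutant (mut) duodenum (duod) and ileum, with 1 point per library and a bar at the mean of 4; a library with 0 counts is drawn at 0.01 CPM. Reg3b and Reg2 stand higher in every mutant duodenum library than in any control one, Reg4 lower, and Reg3a is lowest in mutant ileum.

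With genotype, 2 of 7 Reg genes rose in mutant duodenum (Reg2 and Reg3b) against 3.44% of all tested genes, and 1 fell (Reg4) against 5.11%, or 8.55% in either direction. DESeq2's Wald test called 4 higher there. The median log2 fold change of the 7 was 3.09, beside 0.02 over all 17611 genes tested. It was 3.07 over the 20 exocrine pancreas genes, none of which was called. In mutant ileum 2 of 7 rose (Reg2 and Reg3d) against 19.0% of all tested genes and 1 fell (Reg3a) against 14.6% (33.6% in either direction), with a median of 0.75 beside -0.03. The ileum share, 3 of 7, is near that of all genes and is no result about the family. Transcripts of the members differ enough in sequence to be counted apart in most places: Reg1 and Reg2 were 79.8% identical over 674 aligned bases with a longest shared run of 19 bases, and Reg3b and Reg3g were 71.6% identical with a longest shared run of 35 bases. Reads that fall in such runs could still be split or lost, so the level of a single member is uncertain to that extent.

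**Figure D2:**
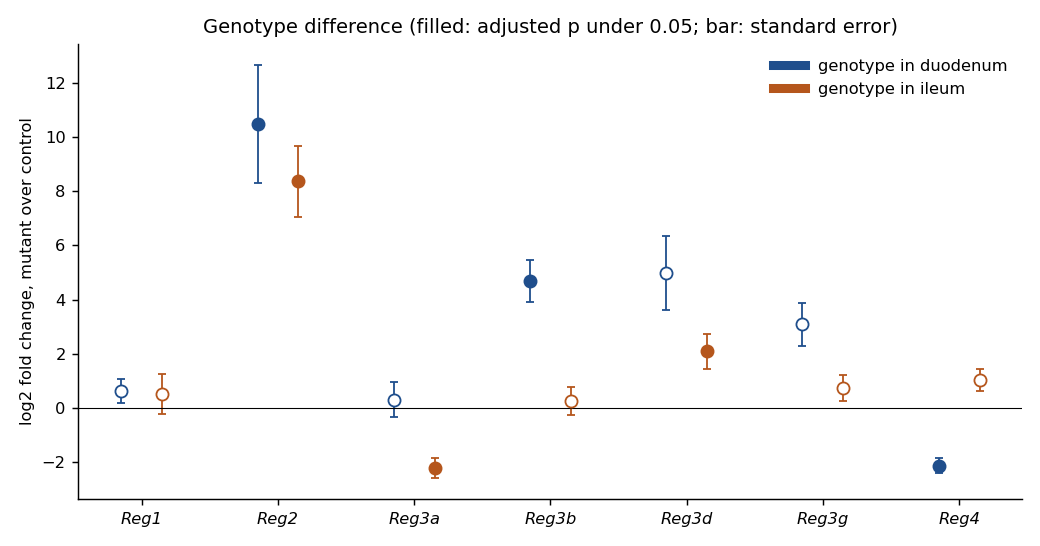
Log2 fold change, mutant over control, of the 7 Reg genes in duodenum (blue) and ileum (orange); bars are standard errors and filled points passed an adjusted p under 0.05. Reg2 lies highest in both tissues, Reg3b is high in the duodenum at 4.67 and near 0 in the ileum at 0.27, and Reg4 lies below 0 in the duodenum and above it in the ileum.

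Reg3b, an antimicrobial lectin gene, had 38.5, 62.7, 31.7 and 179 CPM in control duodenum (C133, C134, C151, C154, an order kept below). Mutant duodenum had 956, 1178, 3679 and 2044 CPM (M136, M167, M168, M177, also kept below). The groups did not overlap, and the lowest mutant library lay above the highest control library (log2 fold change 4.67, SE 0.77, adjusted p = 0.0171). In the ileum Reg3b was already high in controls, at 1115, 815, 2516 and 3886 CPM, and mutants lay within that range at 1587, 2188, 2725 and 3469 CPM (log2 fold change 0.27, SE 0.52, adjusted p = 0.715). The genotype difference itself differed between tissues, by -4.41 on the log2 scale for ileum minus duodenum (SE 0.92, adjusted p = 0.0176). The duodenal call for Reg3b ended without control mouse C134 (adjusted p = 0.0619) and without mutant mice M167 and M177 together (adjusted p = 0.113), with 2.3e-07 to 0.113 over all alternatives, while its log2 fold change stayed between 4.19 and 6.00. The difference between tissues lost its call without control mouse C151 (adjusted p = 0.0672) and without M167 and M177 (adjusted p = 0.0761), with 0.000298 to 0.0761 over all alternatives. Among mutant duodenum libraries Reg3b was highest in M168 and lowest in M136, while Ctrb1 was highest in M167 and M177 and also lowest in M136. The log2 fold change of Reg3b was 6.00 when the exocrine pancreas level entered the fit (adjusted p = 0.0325).

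Reg3g, the lectin gene whose product binds the cell wall of Gram-positive bacteria, moved with Reg3b in some libraries but not in all. In control duodenum it stood at 40.3, 41.2, 34.3 and 98.4 CPM in C133, C134, C151 and C154, and in mutant duodenum at 353, 78.7, 955 and 416 CPM in M136, M167, M168 and M177. M167 lay below control mouse C154, so the groups overlapped, and the test was not passed (log2 fold change 3.09, SE 0.78, adjusted p = 0.0597). It passed in 4 of 17 alternatives, among them the fit without M167 (adjusted p = 0.0276), and adjusted p was 0.000419 to 0.213 over all alternatives. Ileum libraries held 498, 685, 1559 and 2247 CPM of Reg3g in controls and 1714, 1809, 2109 and 2682 CPM in mutants, overlapping groups with a log2 fold change of 0.75 (SE 0.48, adjusted p = 0.263). For the difference between tissues in this gene the value was -2.35 (SE 0.90, adjusted p = 0.103). Counts of Reg3b per count of Reg3g were 0.926 to 1.82 in control duodenum and 2.71, 14.97, 3.85 and 4.91 in M136, M167, M168 and M177. In the ileum the same ratio was 1.19 to 2.24 in controls and 0.926 to 1.29 in mutants, so all mutant libraries exceeded all control ones in the duodenum and not in the ileum.

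The start regions of these genes are shown because these are the members that were higher in ileum than in duodenum in control mice. Each is 300 bases from RefSeq on GRCm38.p6, from 250 bases before the start site, and capitals mark matches to the STAT motif TTCNNNGAA or to TTTCCCA on either strand (as TGGGAAA on the reverse). Reg3b lies at chr6:78370635-78370934 on the plus strand and Reg3g at chr6:78468825-78469124 on the minus strand.
Reg3b: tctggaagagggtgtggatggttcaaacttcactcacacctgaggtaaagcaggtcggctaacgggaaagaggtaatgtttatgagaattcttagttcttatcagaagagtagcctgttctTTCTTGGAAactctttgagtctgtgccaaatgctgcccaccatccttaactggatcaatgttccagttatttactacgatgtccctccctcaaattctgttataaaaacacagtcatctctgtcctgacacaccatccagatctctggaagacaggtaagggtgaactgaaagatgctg
Reg3g: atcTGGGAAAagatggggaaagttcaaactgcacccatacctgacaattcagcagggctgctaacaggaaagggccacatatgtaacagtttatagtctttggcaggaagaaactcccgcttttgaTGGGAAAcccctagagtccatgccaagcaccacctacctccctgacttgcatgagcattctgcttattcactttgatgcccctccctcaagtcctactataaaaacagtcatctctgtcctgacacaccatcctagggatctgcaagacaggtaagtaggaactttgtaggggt
These windows were 69.9% identical when aligned. The STAT motif was found once in Reg3b, 129 bases before the start site, and not in the Reg3g window, while 8.3% of 32851 mouse start regions of this length hold it. TTTCCCA occurred in 2 places in Reg3g and in none in Reg3b, against 8.06% of start regions with at least 1 match.

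The genes that feed the IL-22 and STAT3 route to Reg3b and Reg3g moved little in the duodenum. Of 26 listed, 20 were tested there, 1 rose and 1 fell, with a median log2 fold change of -0.14. Of all genes tested there 8.55% were called in either direction, so this share is no result about the list. Il17rc, an IL-17 receptor subunit, fell by 0.47 (adjusted p = 0.0262). Stat3 itself had a log2 fold change of -0.06 and Il22ra1, the epithelial IL-22 receptor chain, of 0.04, and neither passed (adjusted p = 0.794 and 0.896). In the ileum 21 were tested, none rose and 5 fell, with a median of -0.24. Of all genes tested in the ileum 19.0% rose and 14.6% fell (33.6% in either direction). The count is therefore not read as a result about the list, and the genes below are given for their own values. Il22ra2, a secreted receptor that captures IL-22, fell in the ileum, from 4.38, 7.97, 4.201 and 10.1 CPM in controls to 0.348, 0.714, 0.245 and 0.467 CPM in mutants (log2 fold change -3.87, adjusted p = 0.000163). In the duodenum Il22ra2 had 1.01 to 5.87 CPM in controls and 0.456 to 2.38 CPM in mutants (adjusted p = 0.202). In the ileum Nod2 and Il1b fell by 1.24 and 1.63 (adjusted p = 0.00307 and 0.00465), and in the duodenum they gave -0.37 and -0.81 (adjusted p = 0.250 and 0.172). Transcripts of Il22 were too few to test, with at most 1 count in any duodenum library and 0 to 18 counts in ileum libraries.

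Other genes of the epithelial antimicrobial response were measured beside the Reg genes. In mutant duodenum 2 of 18 tested rose and none fell, with a median log2 fold change of 0.62, where 8.55% of all genes were called. They were Ang4, a Paneth cell ribonuclease (0.83, adjusted p = 0.0159), and Lcn2, which captures bacterial iron carriers (1.2, adjusted p = 0.0172). Dmbt1, which encodes a secreted scavenger receptor glycoprotein and did not pass there (1.33, adjusted p = 0.0689), had its highest duodenal levels in M167 and M177, at 22617 and 21427 CPM against 3578 to 9337 CPM in the other 6 libraries, which are also the libraries with the most Ctrb1. In mutant ileum 5 of 21 tested rose and 2 fell, with a median of 0.38. Beside the 33.6% of all genes called in that comparison, this share is no result about the list, and the genes below are given for their own values. Dmbt1 rose there from 1237 to 2408 CPM in controls to 4481 to 6043 CPM in mutants (log2 fold change 1.44, adjusted p = 0.000508). Retnlb, an antibacterial goblet cell product, rose from 0 to 0.662 CPM to 5.41 to 30.3 CPM (5.52, adjusted p = 0.00623), and Lcn2 by 1.28 (adjusted p = 0.00292). Pigr, which carries IgA across the epithelium, fell by 1.17 (adjusted p = 6.45e-05). Paneth cell genes had 7 of 12 higher and none lower in mutant duodenum, with a median of 0.79, beside 3.44% and 5.11% of all tested genes. In mutant ileum 3 were higher and 1 lower, with a median of 0.01, beside 19.0% and 14.6% of all tested genes (33.6% in either direction). That ileum share is no result about the list. The summed level of the Paneth cell genes was 4547 to 5725 CPM in control and 6980 to 8382 CPM in mutant duodenum. In the ileum it was 11015 to 17919 CPM in control and 8217 to 16779 CPM in mutant libraries. Among these genes the transcript of Pla2g2a rose by 1.31 in the duodenum (adjusted p = 0.000825) and by 0.89 in the ileum (adjusted p = 0.0220). The part of Paneth cells in the levels of Reg3b and Reg3g was not tested.

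Reg3a, a further member of the antimicrobial branch, went the other way in the ileum. Control ileum had 50.4, 70.5, 28.7 and 42.1 CPM of Reg3a and mutant ileum 10.9, 4.73, 12.8 and 12.5 CPM. Every mutant library lay below every control library, and Reg3a fell (log2 fold change -2.21, SE 0.38, adjusted p = 0.00341). This call held in all 17 alternatives, with log2 fold changes of -2.39 to -1.91 and adjusted p of 2.49e-11 to 0.0232. In the duodenum controls had 34.5, 158, 23.4 and 50.5 CPM and mutants 110, 83.7, 48.7 and 80.8 CPM. Control mouse C134 was the highest of these 8 and the groups overlapped (log2 fold change 0.31, SE 0.63, adjusted p = 0.780). The difference between tissues was -2.53 (SE 0.77, adjusted p = 0.0564), and with the mouse as a replicate block it was -2.89 and passed (adjusted p = 0.0190). It also passed without C134 (adjusted p = 0.0244). Over all alternatives it was -3.48 to -2.27, with adjusted p of 0.0173 to 0.224.

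Reg2 was the Reg gene with the largest genotype difference in both tissues, and it appeared in libraries with pancreatic RNA. Control duodenum had 0.721, 0.0160, 4.19 and 0.0197 CPM and mutant duodenum 145, 2725, 780 and 3137 CPM. Among the mutants its order over libraries nearly followed that of Ctrb1, with M136 lowest, M168 next and M167 and M177 far above. The groups did not overlap (log2 fold change 10.47, SE 2.19, adjusted p = 0.0388), and the call ended without any 1 of C133, C134, C151, C154, M167, M168 and M177, with adjusted p of 0.0516 to 0.115, but not without M136. Without C134 and C154, the controls that lack pancreatic RNA, the duodenal log2 fold change was 9.47 (adjusted p = 0.147). In the ileum Reg2 stood at 0.103, 0.0192, 0.206 and 0 CPM in controls, where 0 counts in C154 allow up to 0.0621 CPM. Mutant ileum held 2.24, 37.4, 45.1 and 27.1 CPM, again without overlap (log2 fold change 8.36, SE 1.30, adjusted p = 0.00376). That call ended with limma-voom (adjusted p = 0.171) and without C134 and C154 together (adjusted p = 0.0608).

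Set against Ctrb1, Reg2 differed between genotypes far more than other pancreatic genes did. In the duodenum there were 0.170 and 1.55 counts of Reg2 per 1000 counts of Ctrb1 in control mice C133 and C151, and 105, 78.2, 102 and 90.3 in M136, M167, M168 and M177. Mutant libraries thus kept 1 ratio within a factor of 1.35 while Ctrb1 ranged from 69700 to 1490547 counts. The ileum gave the same picture, with 0.712 and 1.86 in C133 and C151 and 115, 91.3, 123 and 97.4 in the 4 mutants. C134 and C154 had too little Ctrb1 for a ratio (under 100 counts). Between genotypes the log2 difference of the Reg2 ratio was 7.51 in the duodenum and 6.52 in the ileum. The same measure over 19 other exocrine pancreas genes in the duodenum had a median of -0.37 and ran from -0.94 for Zg16 to 0.99 for Gp2, and over 18 in the ileum it had a median of -0.28 and ran from -0.91 for Cel to 1.11 for Gp2. These ratios rest on 2 control mice and carry no test. When the exocrine pancreas level entered the fit, Reg2 gave a log2 fold change of 7.31 in the duodenum (adjusted p = 0.0189) and 6.62 in the ileum (adjusted p = 2.79e-05), over ranges of 4.98e-09 to 0.147 and 3.49e-11 to 0.171 across all alternatives.

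**Figure D3:**
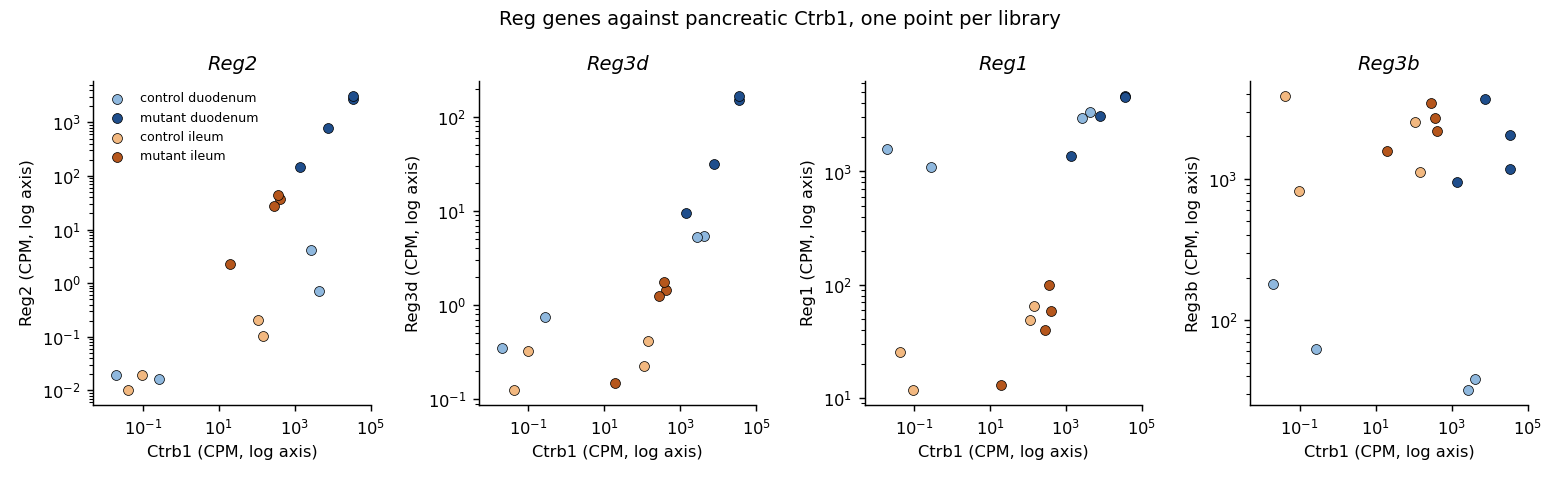
CPM of Reg2, Reg3d, Reg1 and Reg3b against CPM of Ctrb1 (log axes), 1 point per library, coloured by group; a value of 0 is drawn at 0.01. Mutant libraries of both tissues form 1 line for Reg2 and the control libraries with Ctrb1 lie far below it, while Reg1 is high in control duodenum libraries with almost no Ctrb1.

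**Figure D4:**
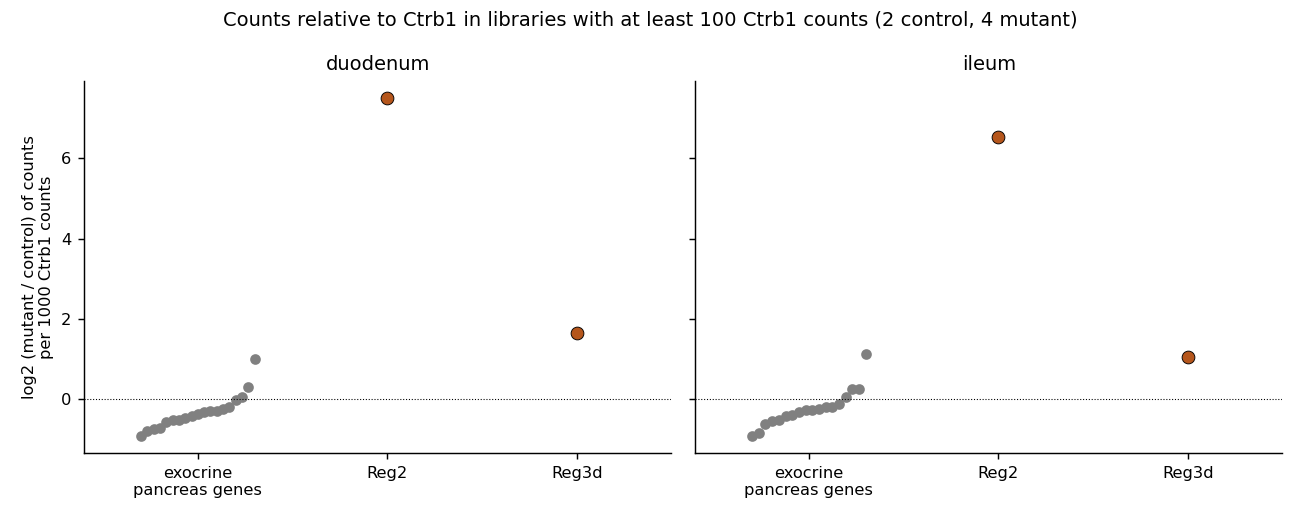
Log2 ratio, mutant over control, of counts per 1000 Ctrb1 counts in duodenum and ileum, from geometric means over 2 control and 4 mutant libraries. Grey points are exocrine pancreas genes, between -0.94 and 1.11, and orange points are Reg2 (7.51 and 6.52) and Reg3d (1.64 and 1.04).

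Reg3d, a pancreatic member of the family also known as an islet neogenesis related gene, differed less between genotypes than Reg2 when set against Ctrb1. Control duodenum had 5.37, 0.754, 5.33 and 0.354 CPM and mutant duodenum 9.50, 152, 31.4 and 167.7 CPM. The lowest mutant lay above the highest control, but the test was missed (log2 fold change 4.98, SE 1.35, adjusted p = 0.0720), though not without M136 (adjusted p = 0.0486), with 0.000296 to 0.329 over all alternatives. Per 1000 counts of Ctrb1 there were 1.27 and 1.97 counts in C133 and C151 and 4.11 to 6.87 in the 4 mutants, a log2 difference of 1.64. The highest of the 19 other listed exocrine pancreas genes there was Gp2 at 0.99. No such ratio was taken for Amy1, a digestive enzyme gene outside that list. Its means were 2.25 CPM in control and 103 CPM in mutant duodenum, where Reg3d had 2.95 and 90.1 CPM. The ileum difference of the Reg3d ratio was 1.04, below Gp2 at 1.11. Among mutants the Reg3d ratio spanned a factor of 1.67 in duodenum and 2.15 in ileum, against 1.35 for Reg2 in both. In the ileum, at under 2 CPM in every library, Reg3d rose from 0.411, 0.326, 0.225 and 0.124 CPM in controls to 0.149, 1.46, 1.77 and 1.26 CPM in mutants (log2 fold change 2.09, SE 0.64, adjusted p = 0.0302). M136 lay within the control range, and the call ended in 12 of 16 alternatives, among them leaving out any 1 of C134, C151, C154, M167, M168 and M177 (adjusted p of 0.0573 to 0.0815) and the exocrine pancreas covariate (adjusted p = 0.242).

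The start regions of Reg2 and Reg3d are shown as the pair set against Ctrb1 above, from the same RefSeq table and with the same marks. Reg2 lies at chr6:78404905-78405204 on the plus strand and Reg3d at chr6:78378816-78379115 on the minus strand.
Reg2: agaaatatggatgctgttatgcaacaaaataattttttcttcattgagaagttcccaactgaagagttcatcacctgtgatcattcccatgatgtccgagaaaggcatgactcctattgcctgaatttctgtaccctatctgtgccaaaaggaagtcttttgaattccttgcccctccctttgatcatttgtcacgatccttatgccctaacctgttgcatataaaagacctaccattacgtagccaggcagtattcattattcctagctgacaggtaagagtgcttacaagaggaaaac
Reg3d: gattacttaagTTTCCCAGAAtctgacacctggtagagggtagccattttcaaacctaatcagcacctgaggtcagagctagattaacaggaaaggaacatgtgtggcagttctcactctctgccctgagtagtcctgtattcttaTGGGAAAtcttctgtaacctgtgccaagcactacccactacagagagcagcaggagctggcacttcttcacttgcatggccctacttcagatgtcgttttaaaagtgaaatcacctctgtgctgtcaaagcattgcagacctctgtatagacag
TTTCCCA is the second motif described for the acinar factor PTF1, beside the E-box CANNTG. It was found in 2 places in Reg3d, 1 of which overlaps a STAT match, and in none in Reg2. E-box matches numbered 3 in Reg2 and 5 in Reg3d, in a setting where 72.3% of all start regions have at least 1. The windows of Reg2 and Reg3d were 51.6% identical, against 57.5% for Reg1 and Reg2.

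Reg1, known as pancreatic stone protein, was a gene of the duodenum in these mice, with or without pancreatic RNA, though lowest where Ctrb1 was least. Control duodenum had 3372, 1093, 2964 and 1587 CPM, where C134 and C154 held almost no Ctrb1. Mutant duodenum held 1373, 4651, 3089 and 4495 CPM, with overlapping groups (log2 fold change 0.62, SE 0.45, adjusted p = 0.381). The sign turned with the exocrine pancreas covariate (-0.25) and without M167 and M177 (-0.0052). In the ileum Reg1 stood at 64.4, 11.7, 48.8 and 25.7 CPM in controls and 13.2, 58.6, 100.5 and 39.7 CPM in mutants (log2 fold change 0.53, SE 0.73, adjusted p = 0.614). In both tissues Reg1 was lowest in C134, M136 and C154, the libraries with the least Ctrb1. In the duodenum it was highest in M167 and M177, which had the most. The part of pancreatic RNA in the level of Reg1 was not tested. Over the 16 libraries Pdx1, a homeobox factor of duodenum and pancreas, had the pattern most like that of Reg1. Pdx1 was lowest among duodenum libraries in C134 (19.1 CPM), which also had the least Reg1. Its mean was 61.4 CPM in control and 54.4 CPM in mutant duodenum.

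Reg4, the member outside the cluster, went down with the enteroendocrine genes in the duodenum and not in the ileum. Control duodenum had 150, 162, 128 and 113 CPM and mutant duodenum 49.2, 31.98, 21.4 and 21.9 CPM, with no overlap, and the gene fell (log2 fold change -2.12, SE 0.28, adjusted p = 0.00485). Beside it, 15 of 17 enteroendocrine genes fell and none rose, where 5.11% of all tested genes fell. Their median was -4.79, led by Gip, Tph1, Cck and Ghrl at -9.63, -9.08, -11.34 and -9.53. Their summed level was 357 to 451 CPM in control and 21.0 to 29.6 CPM in mutant duodenum. The part of enteroendocrine cells in the level of Reg4 was not tested. Control ileum had 135, 72.6, 118 and 82.1 CPM of Reg4 and mutant ileum 132.9, 250, 106 and 330 CPM, overlapping groups (log2 fold change 1.04, SE 0.39, adjusted p = 0.0788). It passed without M168 (adjusted p = 0.0277), with 0.0277 to 0.467 over all alternatives. All 17 enteroendocrine genes fell there, where 14.6% of all tested genes fell. Their median was -6.12 and their summed level 177.4 to 285 CPM in control and 20.3 to 29.7 CPM in mutant ileum. The genotype difference of Reg4 differed between tissues by 3.14 (SE 0.52, adjusted p = 0.00726), with 4.94e-09 to 0.104 over all alternatives and a lost call without C134 and C154. The duodenal fall ended without M167 and M177 together (adjusted p = 0.0859), with 7.81e-14 to 0.0859 over all alternatives.

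Across the genotype by tissue comparison, 1 of 7 Reg genes was called higher in the ileum relative to the duodenum (Reg4), beside 4.86% of all tested genes, and 1 lower (Reg3b), beside 4.13% (8.99% in either direction). With the mouse as a replicate block 2 were lower, Reg3a being added. Reg1, Reg2 and Reg3d gave -0.12, -2.15 and -2.92 (adjusted p = 0.939, 0.606 and 0.256).

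Between the tissues of control mice, 2 of 6 tested Reg genes were higher in ileum (Reg3b and Reg3g), beside 28.0% of all tested genes, and 2 lower (Reg1 and Reg3d), beside 30.3% (58.3% in either direction). Reg3b and Reg3g were higher by 4.76 (SE 0.88, adjusted p = 0.00358) and 4.56 (SE 0.68, adjusted p = 0.00118) on the log2 scale, and Reg1 was lower, at -5.89 (SE 0.74, adjusted p = 0.000488). Reg2 had too few counts to be tested there. In mutant mice 2 of 7 were higher in ileum (Reg3g and Reg4), beside 12.9% of all tested genes, and 4 lower (Reg1, Reg2, Reg3a and Reg3d), beside 18.2% (31.1% in either direction). Reg3b showed a difference of 0.35 there (SE 0.41, adjusted p = 0.556), its mutant duodenum libraries lying at 956 to 3679 CPM and mutant ileum libraries at 1587 to 3469 CPM. Reg4 was higher by 2.72 (SE 0.45, adjusted p = 0.00292) and Reg3a lower, at -2.99 (SE 0.36, adjusted p = 0.0004), where control mice gave -0.42 and -0.46 (adjusted p = 0.108 and 0.579). Reg2 and Reg3d were lower, at -5.92 and -6.28 (adjusted p = 0.0152 and 0.00796), and with the exocrine pancreas covariate these values were 0.11 and -0.66 (adjusted p = 0.844 and 0.144). All 20 exocrine pancreas genes were themselves lower in mutant ileum than in mutant duodenum (median -5.96). The covariate thus goes largely with tissue in mutant mice, and that fit cannot well separate the 2. Calls in mutant mice ended for Reg2 without M167, M168 or M177 (adjusted p = 0.0891, 0.0677 and 0.0870), for Reg3d without M167 or M177 (0.0589 and 0.0526), and for Reg3g without M136 or M177 (0.102 and 0.131). Reg1 in mutant mice was -6.00 between tissues (adjusted p = 0.000579) and -3.29 with the covariate (adjusted p = 0.0022). Without M167 and M177 together the calls of Reg1, Reg3a and Reg4 in mutant mice also ended (adjusted p = 0.195, 0.0507 and 0.139), and that of Reg4 ended with the covariate (0.111). Over all alternatives these were 4.02e-22 to 0.195, 1.32e-19 to 0.0507 and 1.03e-12 to 0.139. In control mice the call of Reg3g ended without C134 and C154 together (adjusted p = 0.0529, with 1.26e-12 to 0.0529 over all alternatives). There the call of Reg3d ended without C133 or C151 (adjusted p = 0.0708 and 0.108). Over all alternatives adjusted p was 2.99e-07 to 0.844 for Reg2, 7.06e-09 to 0.242 and 2.7e-07 to 0.155 for Reg3d in mutant and control mice, and 0.00123 to 0.435 for Reg3g in mutant mice. The tissue and genotype comparisons use the same libraries and are not independent of each other.

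**Figure D5:**
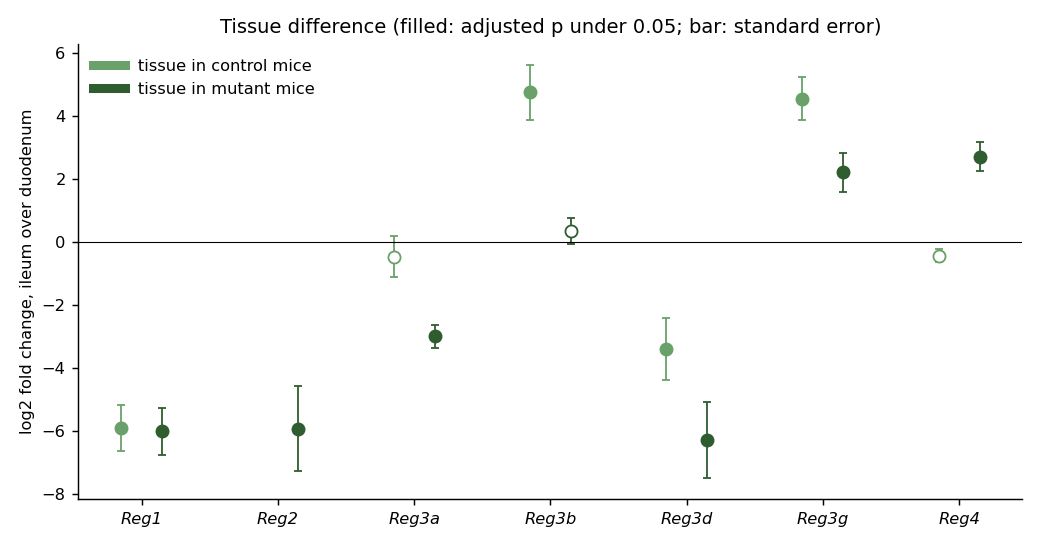
Log2 fold change, ileum over duodenum, of the Reg genes in control mice (light green) and mutant mice (dark green); bars are standard errors and filled points passed an adjusted p under 0.05. Reg1 lies near -6 in both genotypes, Reg3b at 4.76 in control and 0.35 in mutant mice, and Reg2 was not tested in control mice.

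The genes nearest in pattern to each Reg gene were ranked over the 16 libraries by the root mean square difference of centred log2 CPM among 14222 genes. For Reg1 they were Pdx1, Otop3 and Sult6b2, at 0.61 to 0.69 log2 units, where Reg1 itself varied by 3.19. Reg3d was nearest to Cabp2, Amy1 and Ctrc (0.65 to 0.74, own variation 3.13), of which Amy1 and Ctrc encode digestive enzymes. Reg2 had no close match, with Pnliprp1 and Cuzd1 among the nearest at 2.89 and 2.95 against its own variation of 5.59. Reg3b was nearest to the Paneth cell pentraxin gene Mptx2, then Reg3g and Defa-ps6 (0.99 to 1.21, own variation 2.30). Among the nearest to Reg3g were Ptk6 and Defa29 (0.997 and 1.003, own variation 2.21). Ky, Ces1g and Vpreb3 were nearest to Reg3a (0.69 to 0.76, own variation 1.33), and Col3a1, Celf5 and Fn1 to Reg4 (0.63 to 0.65, own variation 1.11). Ranked over the 8 duodenum libraries, 1 of these 21 pairings remained.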

How the data were processed

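Total RNA of duodenum and ileum was sequenced after depletion of ribosomal RNA, per the labels' protocols. The deposited values are raw counts per Ensembl gene. Per the submitters' processing notes, the authors used HTSeq 0.6.1p1, STAR 2.5.3a, Bowtie2 2.2.8 and cutadapt 1.10, on mm39. The release of the annotation and the strand setting were not given in the sources used here. Strand is kept by the library kit, and no annotated gene overlaps a member in GENCODE M21. Symbols and transcript lengths (longest protein-coding transcript) came from GENCODE M21, on GRCm38, which named 52083 of 55359 identifiers; the unnamed ones held 1.02% of counts.

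Counts were fitted with edgeR 4.0.16 in R 4.3.3 (filterByExpr, trimmed mean of M values, robust quasi-likelihood F test, Benjamini-Hochberg adjustment over all tested genes, threshold 0.05). Standard errors are the log2 fold change divided by the square root of F. Genotype was tested within each tissue, tissue within each genotype, and their interaction over 16 libraries. None of these main fits held a term for the mouse. CPM in the text uses 1 scaling over the 16 libraries, and log2 CPM a prior count of 2. Totals of 40.9 to 67.2 M counts put 3 counts, the limit that a count of 0 allows, below 0.1 CPM in each library, for counting error only. The fits were also run on simulated counts that held no mouse effect and no unequal pancreatic RNA, so that run gives no assurance on either.

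Numbers in the titles pair the tissues: deviations of same-numbered libraries correlated across 19018 genes at r of 0.23 to 0.49 in the 8 mice, against -0.11 to 0.25 for the best other mouse. Alternatives were DESeq2 size factors, the DESeq2 1.42.0 Wald test, limma-voom (limma 3.58.1), 2 other filters, each mouse left out, pairs of mice left out, an exocrine pancreas covariate (the mean log2 CPM of 20 genes), all 16 libraries in 1 fit, and the mouse as a replicate block. Members, gene lists and alternatives were chosen with earlier results of these data known. Named are all members, Ctrb1, Neurog3, the 3 nearest genes per member, and up to 4 genes with the smallest p per list. Some genes that meet this rule are not reported here. Stat3, Il22ra1, Il22, Gp2, Zg16, Clps and Cel, and Dmbt1 in the duodenum by library, were chosen after their values were seen. Of 147 listed genes 146 were found in the table, all but Muc6. Lists of goblet, enterocyte, islet, Brunner gland, neutrophil and pancreatic transcription factor genes were also counted.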

Additional observations from a re-analysis of the deposited data

Results flagged for a closer look

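In 3 of 28 groups of 4 libraries, 1 library lay apart on the log2 CPM scale, where chance flags about 1 in 20 groups; the measure is the gap to the nearest library divided by the range. Reg2 in the ileum of M136 stood at 2.24 CPM against 27.1 to 45.1 CPM in the other mutants (0.829338, just above the limit of 0.829). Reg3d in the same library stood at 0.149 CPM against 1.26 to 1.77 CPM (0.854); that library also had the least Ctrb1 of the mutant ileum libraries, 19.5 CPM. Reg3a in the ileum of M167 stood at 4.73 CPM against 10.9 to 12.8 CPM (0.836). By the interaction test, the genotype difference differed between tissues for Reg3b (log2 difference -4.41) and Reg4 (3.14).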

How the results depend on the processing

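Depth limits Reg2 in control mice and Reg3d in ileum, which rest on few counts. Of the recomputed fold changes of the Reg genes 429 kept direction and side of the threshold, 52 lost the call, 17 gained it and 13 turned sign. Counts of called Reg genes moved as follows, and the cause was not tested. In the duodenum 2 higher became 4 with the DESeq2 Wald test and with all 16 libraries in 1 fit, 1 without a count filter and without C134 and C154, and 0 without M167 and M177, where 1 lower also became 0. In the ileum 2 higher became 0 with limma-voom and without C134 and C154, and 1 without a filter, with the filter of 1 CPM in 4 libraries, with the exocrine pancreas covariate and without M167 and M177. In the genotype by tissue comparison 1 higher became 0 without C134 and C154, and 1 lower became 3 with DESeq2, 2 with limma-voom, the 1 CPM filter or the covariate, and 0 without M167 and M177. With the mouse as a replicate block 1 lower became 2 (Reg3a, -2.89), and the block changed no other call of a Reg gene. Between tissues of control mice 2 higher became 1 without C134 and C154, and 2 lower became 1 with limma-voom, without a filter and with the 1 CPM filter. In mutant mice 2 higher became 1 without a filter and 0 with the covariate or without M167 and M177, and 4 lower became 2 and 0 in these last settings.

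With each mouse left out in turn, called members ranged from 0 to 3 higher in the duodenum, from 1 to 2 higher in the ileum, from 0 to 2 lower in the genotype by tissue comparison, from 1 to 2 lower between tissues of control mice, and from 1 to 2 higher and 2 to 4 lower between those of mutant mice. Signs turned for the following values, of which Reg2 between tissues of mutant mice had been called at -5.92. Reg1 went to -0.25 with the covariate and -0.0052 without M167 and M177 in the duodenum, to -0.47 with the covariate and -0.047 without C134 and C154 in the ileum, and, by tissue, to 0.54 with the covariate and 0.60 without M167 and M177, and ranged from -0.68 to 0.17 with each mouse left out. Between tissues Reg3a in control mice went to 0.48 without C134 and C154 and ranged from -0.68 to 0.21 with each mouse left out. In mutant mice Reg2 went to 0.11 with the covariate and Reg3b to -0.086 without M167 and M177. No alternative scaling moved the median of all genes by over 0.1. Of 21 nearest genes 1 remained over the 8 duodenum libraries.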

Other observations

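Marker lists of other cell types were counted in the same fits. In mutant duodenum, of 7 tested goblet cell genes, 10 enterocyte genes, 5 islet genes, 3 neutrophil genes and 5 pancreatic transcription factor genes, none rose or fell, with medians of 0.40, -0.38, 1.94, -0.45 and 1.75. Of all genes tested there 8.55% were called. Ptf1a, the acinar transcription factor gene, had 0 counts in the duodenum of C134 and C154, 1.42 and 1.096 CPM in C133 and C151, and 0.496, 9.24, 2.82 and 8.07 CPM in M136, M167, M168 and M177, the order in which Ctrb1 stood. In mutant ileum 3 of 8 goblet cell genes rose and 2 fell, 2 of 10 enterocyte genes fell, 1 of 2 neutrophil genes fell and 1 of 3 islet genes fell. The last of these was Iapp, which fell by 4.98 (adjusted p = 0.000843), from 0.206 to 0.413 CPM in controls to 0 to 0.0359 CPM in mutants. In control duodenum Iapp stood at 0.906 to 1.28 CPM, C134 and C154 included. Its fall is therefore not read as a change of islet RNA. Of all genes tested in the ileum 19.0% rose and 14.6% fell. The marker lists are short, and their counts are not read as results about these cell types. Tff2 was the single tested gene of the Brunner gland and gastric list, with log2 fold changes of 2.51 and 1.12 in duodenum and ileum (adjusted p = 0.421 and 0.501).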
